A study of Mus musculus with 12 samples.

Results

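The Tcl1 family of the mouse is made up here of 6 genes, *Tcl1* and *Tcl1b1*, *Tcl1b2*, *Tcl1b3*, *Tcl1b4* and *Tcl1b5*. The members were taken by symbol from the 24259 gene symbols of the deposited expression table, and all 6 were found. TCL1 proteins are small proteins that bind the pleckstrin homology domain of the kinase AKT and act as its co-activators, and the human gene TCL1A is known for its activation by translocation in T-cell leukaemia. In the mouse, *Tcl1* is also a maternal-effect gene whose transcript is stored in the oocyte, and embryos of females that lack it cleave poorly. The *Tcl1b* genes are an expansion in the mouse beside *Tcl1* whose transcripts are also found in oocytes and early embryos.

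RNA from sucrose gradients of germinal vesicle (GV) oocytes was sequenced to ask how loss of LSM14B, an RNA-binding protein of oocyte ribonucleoprotein (RNP) particles, affects the loading of maternal mRNAs on ribosomes. The 12 libraries fall into 4 groups of 3, made up of 2 genotypes (WT and *Lsm14b*-KO) and 2 pools of each gradient. The RNP pool holds fractions 1 to 10, and the polysome pool holds the heavier fractions 11 to 28. All oocytes came from females aged 3 weeks, 46 h after 5 IU of pregnant mare serum gonadotropin (PMSG), and a lysate held about 1500 oocytes, a number that takes the oocytes of many females. The KO mice were homozygous for *Lsm14b* tm1a(KOMP)Mbp, a knockout-first reporter insertion on a C57BL/6J background, so the gene was disrupted in all tissues and not only in the oocyte. The labels number the libraries of a group but do not say that they came from separate animals, so a p-value here measures only the spread between these libraries.

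Levels are given as FPKM, fragments per kilobase of transcript scaled to the size of the library, as deposited. *Lsm14b* itself was at 34.6, 29.3 and 27.4 FPKM in the 3 WT RNP libraries and at 0.893, 0.0627 and 0 FPKM in the KO RNP libraries. In polysomes it was at 11.3, 15.3 and 13.2 FPKM in WT and at 0.260, 0 and 0.0876 FPKM in KO. The genotypes did not overlap in either pool, and the exact two-sided permutation test gave p = 0.1, the smallest p that 3 against 3 libraries allow. One library stood apart: in KO polysome replicate 2 the 10 highest genes held 34.7% of the summed FPKM, against 11.6% to 14.7% in the other 11 libraries, with the microRNA gene *Mir300* alone at 170809 FPKM. The 10 oocyte markers were detected in every group, with a sum of 5436 to 5669 FPKM in WT RNP, 7160 to 7553 FPKM in KO RNP, 21880 to 23718 FPKM in WT polysome and 26766 to 29420 FPKM in KO polysome libraries. The 12 granulosa and cumulus cell markers summed to 31.3 to 35.6 FPKM in WT RNP, 42.7 to 70.1 FPKM in KO RNP, 27.9 to 76.3 FPKM in WT polysome and 83.9 to 112 FPKM in KO polysome libraries, so both marker sums were higher in KO in both pools. Of the 8 T and B lymphocyte markers, which matter because lymphocytes can also transcribe *Tcl1*, 7 were listed at 0 in all 12 libraries, *Ptprc* and *Cd3e* among them, and *Ms4a1* was at 55.7 to 124 FPKM. Of the 4 macrophage markers, *Adgre1* was at 0 in all 12 libraries and the sum was at most 10.7 FPKM.

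The 6 genes lie side by side on chromosome 12 and span 76780 bases in the annotation (GENCODE M21 on GRCm38, the same coordinates as mm10). From the centromeric end they are *Tcl1b2* (chr12:105146014-105155225), *Tcl1b1* (chr12:105159690-105166625), *Tcl1b5* (chr12:105176344-105181145), *Tcl1b3* (chr12:105191043-105195612) and *Tcl1b4* (chr12:105201957-105206993), all on the plus strand, followed by *Tcl1* (chr12:105216750-105222793) on the minus strand. Each has 4 exons in the transcript that GENCODE pairs with its RefSeq mRNA, and the coding sequence is 351 bases long in *Tcl1* and in *Tcl1b1*, 354 in *Tcl1b2*, 369 in *Tcl1b3*, 363 in *Tcl1b4* and 366 in *Tcl1b5*. The first 60 coding bases of each gene, which lie in a single exon, are given 5′ to 3′ to show how close the *Tcl1b* genes are to each other and how far *Tcl1* is from them. Capitals mark the bases that all 5 *Tcl1b* genes hold at that position counted from the start codon.
Tcl1: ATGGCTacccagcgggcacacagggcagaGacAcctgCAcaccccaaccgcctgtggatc
Tcl1b1: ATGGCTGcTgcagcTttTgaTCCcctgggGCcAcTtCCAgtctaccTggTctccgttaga
Tcl1b2: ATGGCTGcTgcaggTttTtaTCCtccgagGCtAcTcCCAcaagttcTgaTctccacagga
Tcl1b3: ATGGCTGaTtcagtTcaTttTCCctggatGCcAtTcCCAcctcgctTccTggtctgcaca
Tcl1b4: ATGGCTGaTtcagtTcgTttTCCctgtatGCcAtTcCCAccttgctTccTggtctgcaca
Tcl1b5: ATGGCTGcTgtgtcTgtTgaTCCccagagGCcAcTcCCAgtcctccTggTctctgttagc
Of these 60 positions, 22 hold the same base in all 5 *Tcl1b* genes, and *Tcl1* holds that base at 10 of the 22. In GRCm38 the 60 bases lie at chr12:105222593-105222652 on the minus strand for *Tcl1* and, on the plus strand, at chr12:105159761-105159820 for *Tcl1b1*, chr12:105147090-105147149 for *Tcl1b2*, chr12:105191101-105191160 for *Tcl1b3*, chr12:105202479-105202538 for *Tcl1b4* and chr12:105176415-105176474 for *Tcl1b5*. Over the whole coding sequence, global alignment gave an identity of 48.7% to 51.2% of aligned columns between *Tcl1* and each *Tcl1b* gene and of 71.2% to 86.3% among the 10 pairs of *Tcl1b* genes. The closest pair was *Tcl1b3* and *Tcl1b5*, at 86.3%.

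Paralogs that share long runs of sequence can share reads, so the overlap could bear on the *Tcl1b* values. No 50-base window of the *Tcl1* transcript was found in a transcript of any other member, and no such window of any member was found in a gene outside the family. Of the 50-base windows, 34.1% of those of *Tcl1b3* were also found in another member, 31.4% of those of *Tcl1b2*, 20.8% of those of *Tcl1b5*, 13.02% of those of *Tcl1b1* and 4.28% of those of *Tcl1b4*. At 150 bases, the length of 1 read, *Tcl1b2* and *Tcl1b3* still shared 3.84% and 3.68% of their windows with another member, and the other 4 genes shared none. *Tcl1* and *Tcl1b4* could therefore be told from the rest nearly everywhere, and the levels of *Tcl1b2*, *Tcl1b3*, *Tcl1b5* and *Tcl1b1* are less certain where reads could have been divided among them.

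**Figure D1:**
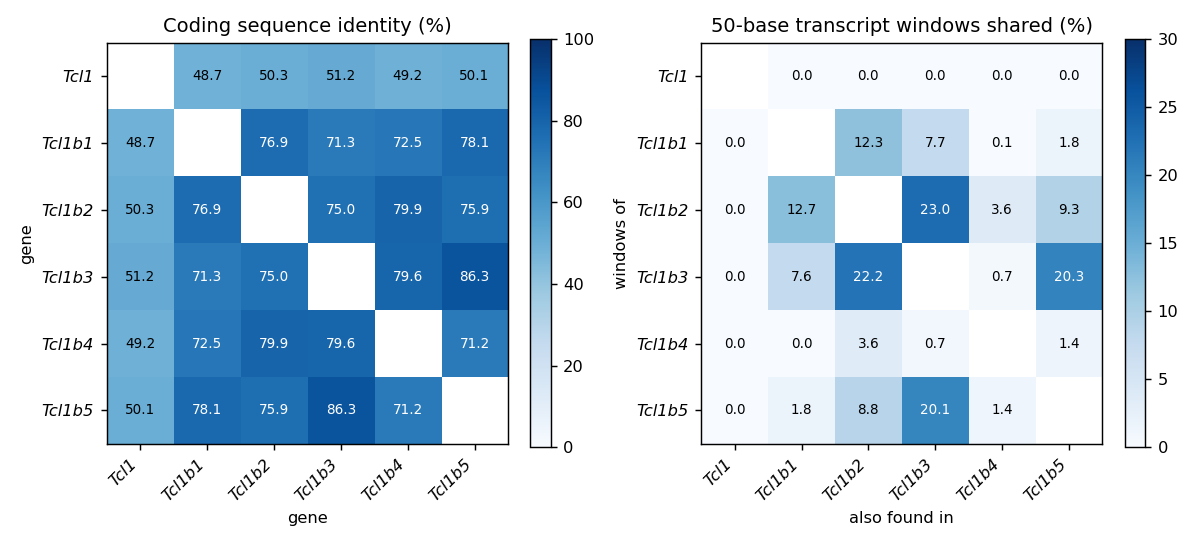
Sequence shared within the Tcl1 family. The left panel gives the percent of aligned columns that are identical between coding sequences, and the right panel gives the percent of the 50-base transcript windows of the gene in the row that are also found in a transcript of the gene in the column. *Tcl1* stands apart in both panels, with at most 51.2% coding identity and no shared window.

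The sequence just before the start site was compared because the 6 genes lie in 1 cluster and are all transcribed in the oocyte. The RefSeq promoter table (GRCm38.p6) held all 6 genes, as 250 bases before and 50 bases after the start. The windows are printed 5′ to 3′ on the gene's own strand with CANNTG, the E-box read by helix-loop-helix factors, in capitals. Bases that the annotation places in an exon were left out, other than a 30-base window that ends on the E-box nearest to the start in *Tcl1* and *Tcl1b4*.
Tcl1: ctcgctccagggggcacaggcccaCACCTG
Tcl1b1: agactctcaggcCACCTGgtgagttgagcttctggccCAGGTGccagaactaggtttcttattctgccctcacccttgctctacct
Tcl1b2: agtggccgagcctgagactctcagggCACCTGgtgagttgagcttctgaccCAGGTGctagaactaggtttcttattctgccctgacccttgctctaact
Tcl1b3: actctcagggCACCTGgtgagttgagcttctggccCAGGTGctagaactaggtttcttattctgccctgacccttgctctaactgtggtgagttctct
Tcl1b4: acctggtgagttgagcttctggccCAGGTG
Tcl1b5: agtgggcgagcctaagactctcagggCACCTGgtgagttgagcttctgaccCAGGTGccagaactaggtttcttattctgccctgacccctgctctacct
These windows lie at chr12:105222753-105222782 on the minus strand for *Tcl1* and, on the plus strand, at chr12:105159604-105159689 for *Tcl1b1*, chr12:105146919-105147018 for *Tcl1b2*, chr12:105190945-105191042 for *Tcl1b3*, chr12:105202335-105202364 for *Tcl1b4* and chr12:105176244-105176343 for *Tcl1b5*. In the 100 bases before the start, each *Tcl1b* gene held CACCTG followed by CAGGTG, its reverse complement, and *Tcl1* held 1 CACCTG that begins 21 bases before the start. On either strand, CACCTG was found in all 6 promoters of 300 bases and in 20.2% of the 32851 promoters of the table, and this motif was picked after the sequences were seen. CANNTG, which includes CACCTG, was found in all 6 and in 72.3% of all promoters. TATAAA, the TATA box, was found in none of the 6 and in 13.6% of all promoters, and TAATTG, the core of the element bound by the oocyte factor NOBOX, was found in none of the 6 and in 8.0% of all. Over the 250 bases before the start, promoter identity was 55.0% to 89.4% among *Tcl1b* genes and 42.8% to 48.0% between *Tcl1* and the others. A match of these letters is a description of the window and not of a bound site.

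*Tcl1* was among the most abundant mRNAs of the oocyte. It was at 4644, 4849 and 5064 FPKM in WT RNP libraries, the fourth highest of all genes in each of them, and at 3778, 3781 and 3602 FPKM in KO RNP libraries, where it ranked 7 to 9. In polysomes it was at 2271, 2122 and 2404 FPKM in WT, rank 13 to 18, and at 1331, 1445 and 1538 FPKM in KO, rank 38 to 41. *Tcl1* alone made up 61.9% to 82.5% of the FPKM summed over the family in every library, and its 4 groups of libraries did not overlap.

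The *Tcl1b* genes were expressed at lower and unequal levels. *Tcl1b1* was at 470, 567 and 476 FPKM in WT RNP, 371, 223 and 229 FPKM in KO RNP, 585, 284 and 414 FPKM in WT polysome and 179, 225 and 272 FPKM in KO polysome libraries. *Tcl1b2* was at 195, 244 and 173 FPKM in WT RNP, 453, 389 and 195 FPKM in KO RNP, 346, 314 and 169 FPKM in WT polysome and 247, 411 and 267 FPKM in KO polysome libraries. For *Tcl1b1* every KO library was below every WT library within a pool, whereas for *Tcl1b2* the genotypes overlapped in both pools and the highest values were in KO libraries.

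*Tcl1b3* was at 237, 237 and 178 FPKM in WT RNP, 140, 147 and 118 FPKM in KO RNP, 148, 162 and 116 FPKM in WT polysome and 96.4, 98.6 and 122 FPKM in KO polysome libraries. *Tcl1b4* was at 249, 206 and 232 FPKM in WT RNP, 189, 186 and 203 FPKM in KO RNP, 116, 114 and 127 FPKM in WT polysome and 108, 121 and 106 FPKM in KO polysome libraries. *Tcl1b5* was at 48.0, 52.9 and 67.0 FPKM in WT RNP, 18.9, 30.9 and 21.04 FPKM in KO RNP, 18.6, 22.6 and 60.7 FPKM in WT polysome and 32.1, 33.9 and 19.9 FPKM in KO polysome libraries. For these 3 genes all KO libraries were below all WT libraries in the RNP pool and the genotypes overlapped in the polysome pool. The WT polysome libraries of *Tcl1b5* were spread most, since replicate 3 was at 60.7 FPKM and the other two were near 20 FPKM. *Tcl1b5* also rested on the fewest fragments, an estimated 80 to 410 per library against 8500 to 40800 for *Tcl1*. These counts are rough, from the spacing of the lowest FPKM values searched within a fixed range.

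**Figure D2:**
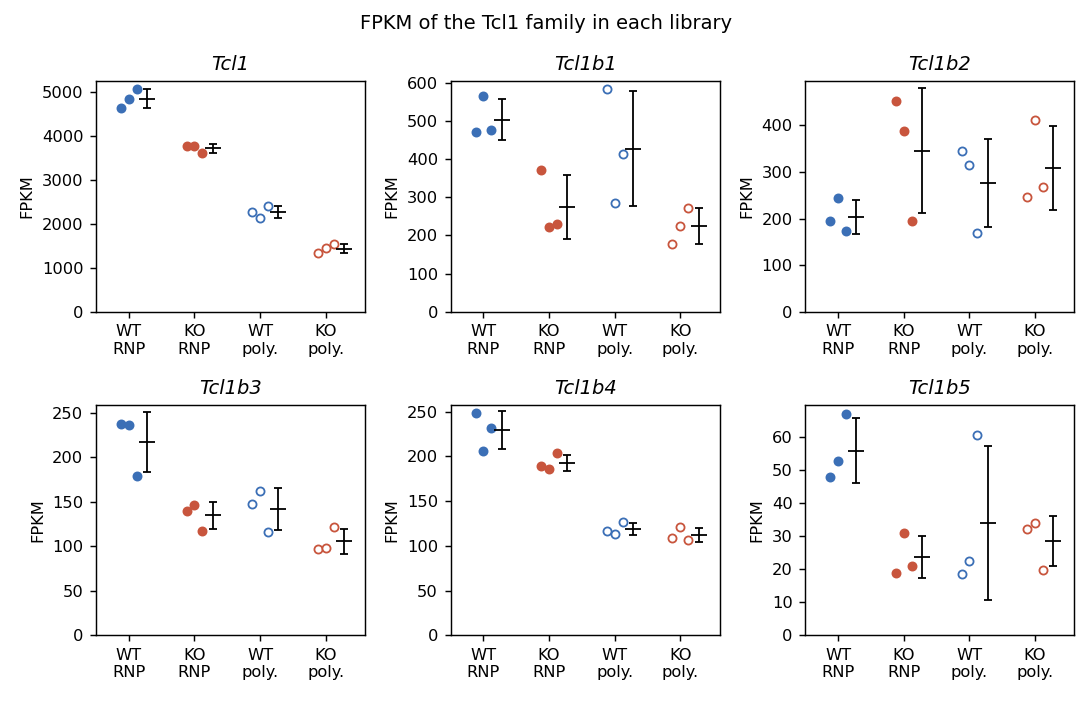
FPKM of each Tcl1 family gene in the 12 libraries, by genotype and pool, each panel with its own linear axis from 0. Points are libraries 1, 2 and 3 from left to right (filled, RNP; open, polysome; blue, WT; red, KO), and the black mark beside them is the mean with its SD over 3 libraries. The *Tcl1* means run from 4852 FPKM in WT RNP to 1438 FPKM in KO polysomes with no overlap of groups. The *Tcl1b2* libraries of WT and KO overlap within each pool.

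Because FPKM is per transcript length, the members can be ordered by level within a group. *Tcl1* was the highest in all 4 groups, at 9.62 times the next gene in WT RNP, 10.8 times in KO RNP, 5.30 times in WT polysomes and 4.66 times in KO polysomes. *Tcl1b5* was the lowest in all 4 groups, and its libraries did not overlap those of the gene above it in any group. The gene after *Tcl1* was *Tcl1b1* in both WT pools and *Tcl1b2* in both KO pools. *Tcl1b1* and *Tcl1b2* overlapped over their libraries in WT polysomes, KO polysomes and KO RNP, so the order of these genes holds beyond the spread of the libraries only in WT RNP, where *Tcl1b1* was also 2.202 times *Tcl1b4*. *Tcl1b4* and *Tcl1b3* were not separated in WT RNP, WT polysomes or KO polysomes, and *Tcl1b3* and *Tcl1b2* were not separated in WT RNP.

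The order of *Tcl1b1* and *Tcl1b2* can be read within each library from the ratio of their FPKM. This ratio was picked after the values were seen and so is given with no test. *Tcl1b2* over *Tcl1b1* was 0.416, 0.430 and 0.363 in WT RNP libraries and 1.22, 1.74 and 0.853 in KO RNP libraries, so the genotypes did not overlap. In polysomes the ratio was 0.591, 1.11 and 0.409 in WT and 1.38, 1.83 and 0.982 in KO, and WT replicate 2 overlapped with KO. How shared reads were counted is not given in the sources used here. If each was counted once, the sum over the 5 *Tcl1b* genes depends little on how they were divided. It was 1199, 1306 and 1126 FPKM in WT RNP against 1172, 976 and 766 FPKM in KO RNP, and 1213, 896 and 888 FPKM in WT polysomes against 663, 890 and 786 FPKM in KO polysomes. The genotypes therefore overlapped in both pools for this sum, whose mean was 0.802 of WT in RNP and 0.780 of WT in polysomes.

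**Figure D3:**
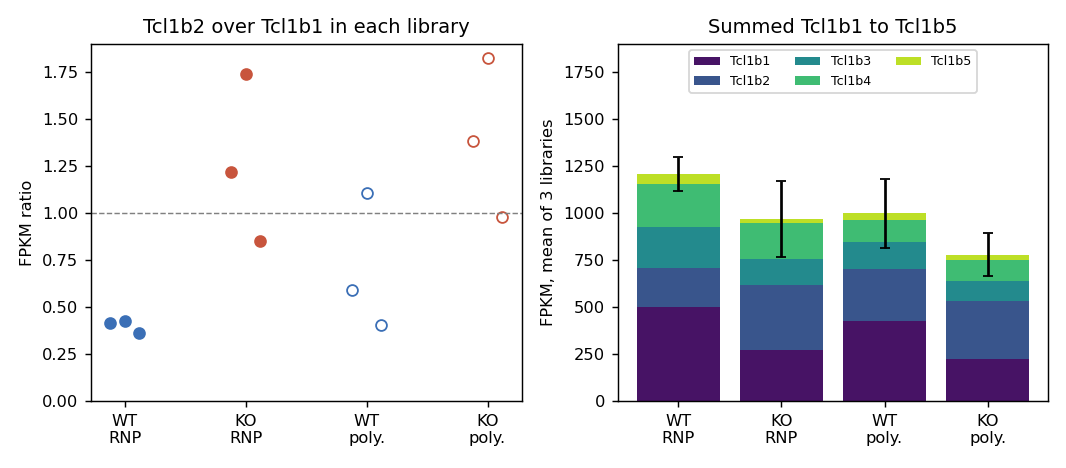
The Tcl1b genes by genotype and pool. The left panel gives the FPKM of *Tcl1b2* over that of *Tcl1b1* in each library (filled, RNP; open, polysome; blue, WT; red, KO; dashed line, equal levels), and the right panel stacks the mean FPKM of the 5 genes with the SD of their sum over 3 libraries. The ratio is at most 0.430 in the WT RNP libraries and at least 0.853 in the KO RNP libraries, while the sums of WT and KO overlap.

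In the RNP pool, 4 of the 6 members were lower in KO than in WT and none was higher. Changes are given as the difference in log2(FPKM + 1) with its standard error, tested with limma and Benjamini-Hochberg adjustment over all genes tested, and a member was called at an adjusted p under 0.05. *Tcl1b5* fell by 1.23 ± 0.22 (limma, adjusted p = 0.00486), *Tcl1b1* by 0.91 ± 0.18 (adjusted p = 0.0082), *Tcl1b3* by 0.68 ± 0.14 (adjusted p = 0.00952) and *Tcl1* by 0.38 ± 0.05 (adjusted p = 0.000957), each with 3 libraries per genotype. In FPKM the KO mean was 0.422 of the WT mean for *Tcl1b5*, 0.544 for *Tcl1b1*, 0.620 for *Tcl1b3* and 0.767 for *Tcl1*. *Tcl1b4* did not pass (difference of -0.24 ± 0.10, limma adjusted p = 0.124, 95% interval -0.47 to -0.02), although its KO libraries were all below its WT libraries. *Tcl1b2* did not pass either, and its difference was positive (0.68 ± 0.28, limma adjusted p = 0.113, 95% interval 0.06 to 1.31). Of all 9931 genes tested in this pool, 10.2% were called lower, 10.5% higher and 20.7% in either direction, and 18.4% had all KO libraries below all WT libraries, as 5 of the 6 members had. The median change over the 6 members was -0.53, against 0.05 over all genes tested.

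These RNP results depended on how the variance was modelled and, for *Tcl1b2*, on 1 library. Without an intensity trend in limma, only the *Tcl1b5* call was left, and the adjusted p of *Tcl1* was 0.146. Without KO RNP replicate 3, where *Tcl1b2* was at 195 FPKM against 453 and 389 FPKM in the other KO libraries, *Tcl1b2* was higher in KO by 1.05 (limma, adjusted p = 0.00367). In bulk lysates, fewer cells of a type and less RNA per cell cannot be told apart, and the higher oocyte and granulosa marker sums of the KO libraries stand beside these falls, where their part in the result was not tested.

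In the polysome pool, *Tcl1* was the member that passed the test, and it was lower in KO. It fell by 0.66 ± 0.09 (limma, adjusted p = 0.00528), with a KO mean of 1438 ± 103 FPKM against 2266 ± 141 FPKM in WT (SD, n = 3), or 0.635 of WT. Of all 9536 genes tested, 4.73% were called lower, 5.64% higher and 10.4% in either direction, against 1 of the 6 members, and 13.4% had all KO libraries below all WT libraries, as *Tcl1* and *Tcl1b1* had. *Tcl1b1* had the largest difference, -0.88 ± 0.26, and did not pass (limma, adjusted p = 0.0633, 95% interval -1.47 to -0.30). *Tcl1b3* was at -0.42 ± 0.17 (limma, adjusted p = 0.172), *Tcl1b4* at -0.09 ± 0.14 (adjusted p = 0.730), *Tcl1b5* at -0.08 ± 0.43 (adjusted p = 0.927) and *Tcl1b2* at 0.19 ± 0.29 (adjusted p = 0.732). The interval of *Tcl1b5* ran from -1.06 to 0.90, so its direction in polysomes could not be told from these libraries. The median change over the members was -0.25, against 0.10 over all genes tested.

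The *Tcl1* call in polysomes was kept when any 1 library was left out, with an adjusted p of at most 0.0241 in limma, and was lost without an intensity trend (adjusted p = 0.124). Without KO polysome replicate 2, the library with *Mir300* at a high level, the *Tcl1* change was -0.66 (limma, adjusted p = 0.0241). The *Tcl1b1* difference passed without WT polysome replicate 2, the lowest WT library for that gene (-1.15, limma adjusted p = 0.0210).

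**Figure D4:**
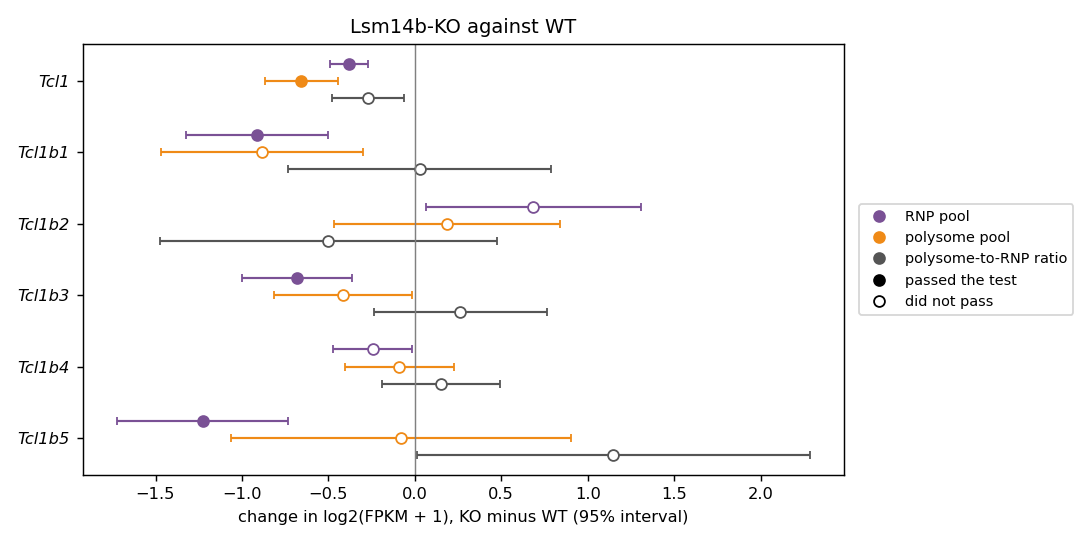
Change of each Tcl1 family gene between genotypes, as log2(FPKM + 1) in KO minus WT, in the RNP pool, in the polysome pool and as the difference of the polysome and RNP changes. Bars are 95% intervals from limma with 3 libraries per group, and filled points passed an adjusted p of 0.05. In the RNP pool 4 genes are filled and lie below 0, in the polysome pool *Tcl1* alone is filled, and no ratio is filled.

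The genotype effect on the polysome-to-RNP ratio, was tested in limma as the genotype-by-pool term of a model with all 12 libraries, and was called for none of the 6 members. Of all 10949 genes tested, 0.237% were called, 0.0822% as higher and 0.155% as lower in KO. This comparison uses the same libraries as the comparisons within each pool, so it adds no independent samples. At an unadjusted p under 0.05 there were 2 members, with opposite signs. The ratio of *Tcl1* was lower in KO by a difference of -0.27 ± 0.10 (limma, adjusted p = 0.301, 95% interval -0.48 to -0.07), and that of *Tcl1b5* was higher by 1.15 ± 0.53 (adjusted p = 0.442, 95% interval 0.01 to 2.28). The other 4 genes lay between -0.50 ± 0.45 for *Tcl1b2* and 0.26 ± 0.23 for *Tcl1b3*. The fall of *Tcl1* in polysomes and in the RNP pool was thus not shown to differ in size, and its interval includes a polysome change larger than the RNP change by up to 0.48. The median over the members was 0.09 and over all genes 0.04.

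Within a genotype, *Tcl1* and *Tcl1b4* were lower in the polysome than in the RNP pool. In WT, *Tcl1* was lower by a difference of -1.10 ± 0.07 (limma, adjusted p = 5.35e-05), *Tcl1b4* by -0.94 ± 0.13 (adjusted p = 0.00258) and *Tcl1b3* by -0.61 ± 0.18 (adjusted p = 0.0494). In KO, *Tcl1* was lower by -1.37 ± 0.07 (limma, adjusted p = 2.68e-06) and *Tcl1b4* by -0.78 ± 0.10 (adjusted p = 0.0006), and *Tcl1b3* did not pass (-0.35 ± 0.14, adjusted p = 0.0890). The call of *Tcl1b3* in WT was at the edge of the threshold and was lost in 8 of 14 alternative settings, among them leaving out WT polysome replicate 1 or 3 (limma, adjusted p = 0.0730 and 0.107) and WT RNP replicate 1 or 2 (0.155 and 0.156). *Tcl1b3* passed in KO without KO polysome replicate 3 (-0.46, limma adjusted p = 0.0390). Of all genes tested, 6.72% were called lower in polysomes in WT, 7.97% higher and 14.7% in either direction, against 3, 0 and 3 of the 6 members. In KO, 13.8% were called lower, 15.5% higher and 29.2% in either direction, against 2, 0 and 2 members, and all polysome libraries lay below all RNP libraries for 17.9% of genes in WT and 21.7% in KO.

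As a ratio of mean FPKM, polysome over RNP, *Tcl1* was at 0.467 in WT and 0.387 in KO, the lowest of the family in both genotypes. *Tcl1b4* was at 0.519 in WT and 0.579 in KO, and *Tcl1b3* at 0.653 and 0.784. *Tcl1b1* was at 0.848 and 0.820, with overlapping pools in both genotypes and no call (limma differences of -0.29 ± 0.23 in WT and -0.26 ± 0.21 in KO). *Tcl1b2* was at 1.36 in WT and 0.892 in KO, and its difference in WT was the only positive one (0.39 ± 0.26, limma adjusted p = 0.370), which passed without WT polysome replicate 3, its low library (0.70, adjusted p = 0.0327). *Tcl1b5* was at 0.607 in WT and 1.21 in KO. Its WT difference of -0.88 ± 0.40 did not pass (limma, adjusted p = 0.188), and without WT polysome replicate 3, its high library, it was -1.39 (adjusted p = 0.0124). FPKM is relative within a library, so these ratios order the genes and do not give the share of a transcript that was on ribosomes.

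**Figure D5:**
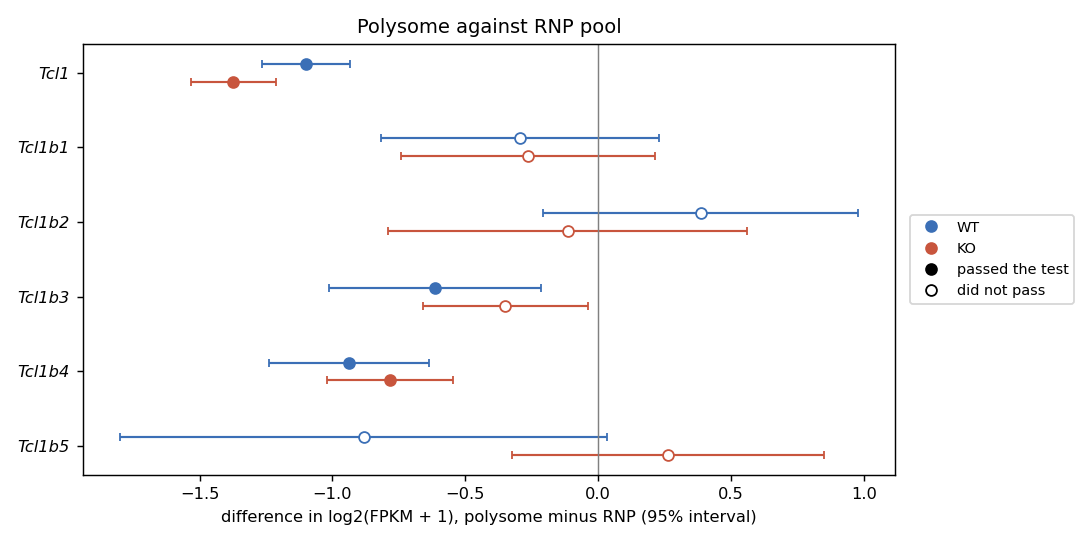
Difference between pools for each Tcl1 family gene, as log2(FPKM + 1) in the polysome minus the RNP pool, in WT (blue) and KO (red). Bars are 95% intervals from limma with 3 libraries per group, and filled points passed an adjusted p of 0.05. *Tcl1* and *Tcl1b4* are filled and below 0 in both genotypes, and *Tcl1b1* and *Tcl1b2* lie nearest to 0 in WT.

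The members did not vary as a single block. Over the 12 libraries, the Pearson correlation of log2(FPKM + 1) with the family mean was 0.914 for *Tcl1*, 0.874 for *Tcl1b3*, 0.837 for *Tcl1b4*, 0.749 for *Tcl1b1*, 0.567 for *Tcl1b5* and -0.238 for *Tcl1b2*, each of which is itself part of that mean. The closest pair was *Tcl1* and *Tcl1b4*, at 0.941, which share no 50-base window. *Tcl1b2* was negatively correlated with all 5 others, from -0.220 with *Tcl1b3* to -0.623 with *Tcl1b5*. These values are descriptions over libraries that fall into 4 groups, and no correlation within groups was computed.

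Among 6672 other genes that averaged 5 FPKM or more, the 5 whose pattern over the 12 libraries was most like the family mean were *Riok1*, a kinase of small ribosomal subunit maturation (r = 0.964), *Zfp653*, a zinc finger gene (0.961), *Pan2*, the catalytic subunit of a poly(A) nuclease (0.957), *Plat*, tissue-type plasminogen activator (0.953), and *Pstpip1*, a cytoskeletal adaptor (0.953). *Plat* was the most abundant of the 5. Its mean was 1687 ± 119 FPKM in WT RNP, 692 ± 41.7 FPKM in KO RNP, 667 ± 31.1 FPKM in WT polysome and 251 ± 12.6 FPKM in KO polysome libraries (SD, n = 3). The order of its 4 group means was that of *Tcl1*. Unlike those of *Tcl1*, its KO RNP libraries (646 to 728 FPKM) overlapped its WT polysome libraries (647 to 703 FPKM).

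*Akt1*, *Akt2* and *Mtcp1* were far less abundant than *Tcl1*. The kinase genes were at 12.8 to 23.8 FPKM for *Akt1* and 8.09 to 21.2 FPKM for *Akt2* as means of the 4 groups, and *Mtcp1*, the other homologue of the family, was at 55.2 to 131 FPKM. None of these 3 was called between genotypes in either pool, against 10.4% of all genes in polysomes and 20.7% in the RNP pool. *Akt1* was at 25.1, 17.2 and 27.5 FPKM in WT polysomes and 15.9, 13.8 and 8.68 FPKM in KO polysomes, a difference of -0.83 ± 0.33 that did not pass (limma, adjusted p = 0.152). *Mtcp1* was at 0.31 ± 0.23 in polysomes (limma, adjusted p = 0.436) and 0.23 ± 0.16 in the RNP pool (adjusted p = 0.357). Like *Tcl1*, *Mtcp1* was lower in polysomes than in the RNP pool, by -0.99 ± 0.19 in WT (limma, adjusted p = 0.0109) and -0.92 ± 0.20 in KO (adjusted p = 0.00796).

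Of the 32 genes of an AKT pathway list, 31 were tested in polysomes, where 1 was higher and 0 were lower, and 28 in the RNP pool, where 2 were higher and 0 were lower. Over all genes in polysomes, 5.64% were called higher, 4.73% lower and 10.4% in either direction. In the RNP pool these shares were 10.5%, 10.2% and 20.7%. The median change of the tested genes was 0.52 in polysomes against 0.10 over all genes, and 0.16 in the RNP pool against 0.05 over all genes. At an unadjusted p under 0.05 there were 10 genes of the list in polysomes, against 2505 of all 9536, and 5 in the RNP pool, against 3385 of all 9931. In polysomes *Hsp90aa1*, a chaperone of AKT, was at 393, 400 and 338 FPKM in WT and 676, 741 and 713 FPKM in KO, higher by 0.91 ± 0.11 (limma, adjusted p = 0.00296). In the RNP pool the other chaperone gene *Hsp90ab1* was higher by 0.59 ± 0.12 (limma, adjusted p = 0.0107) and *Akt1s1*, an AKT substrate, by 0.57 ± 0.14 (adjusted p = 0.0209), and both calls were lost without KO RNP replicate 2. The polysome-to-RNP ratio was called for 1 gene of the list, *Hsp90aa1*, and that call was lost in 7 of the 12 fits that left out 1 library.

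Of 22 other protein-coding genes within 1000 kb of the cluster, 1 of 8 tested was called in polysomes and 2 of 10 in the RNP pool, shares near the 10.4% and 20.7% of all genes. *Dicer1*, which encodes the nuclease that makes small RNAs, was higher in KO by 1.08 ± 0.20 in polysomes (limma, adjusted p = 0.0132) and by 0.47 ± 0.14 in the RNP pool (adjusted p = 0.0469). Its polysome call was lost without KO polysome replicate 3, and its RNP call was lost without any 1 of the RNP libraries other than WT replicate 3. *Bdkrb1*, a bradykinin receptor gene, was lower in the RNP pool by a difference of -1.16 ± 0.19 (limma, adjusted p = 0.00336). In polysomes its difference was -1.89 ± 0.65 and did not pass (limma, adjusted p = 0.103), although its KO libraries were all below its WT libraries. No other neighbour was called in either pool and none in the ratio, and the median change of the neighbours was 0.28 in polysomes and 0.01 in the RNP pool.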

How the data were processed

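RNA of both pools was amplified by Smart-seq2 and sequenced as paired reads of 150 bases. Per the labels, the authors aligned reads to mm10 with TopHat2 2.0.13 and made FPKM values with Cufflinks 2.2.1. The deposited table holds FPKM per gene and library, with no read counts. How reads shared by paralogs were divided is not given in the sources used here. Columns of the authors' own comparisons (fold changes and p-values) were not used. Sources differ on the densest sucrose and on the library kit.

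Libraries were grouped by their labels. log2(FPKM + 1) was tested with limma 3.58.1 (R 4.3.3, empirical Bayes with an intensity trend) over genes with at least 1 FPKM in at least 3 libraries of the comparison, with Benjamini-Hochberg adjustment over all of them. A fold change on this scale understates that of low genes. In simulated data with 200 changed genes for the polysome comparison, 20% of changes of 1 on the log2 scale (9206 genes tested) and 86.5% of changes of 2 (9192 genes) were recovered. The changed genes were drawn at random from all genes above a low level, so these shares are not those for the members. The real polysome comparison called 989 of 9536 genes, more than were changed in the simulation. The adjustment therefore did not act under the same conditions. Depth was estimated at 4640000 to 7910000 fragments per library from the spacing of the lowest FPKM values, with fragments of 200 bases assumed. The spacing was searched only within a fixed range, so a depth well outside these values could not have been found. The depth estimates are rough and cover counting error only.

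Named were the members, *Lsm14b*, *Akt1*, *Akt2* and *Mtcp1*, the genes of the AKT pathway and neighbour lists called between genotypes, and the 5 genes most like the family mean. Some items within this rule are not reported here. The members and lists were chosen with earlier results of these data known. The alternatives were other pseudocounts, filters and scalings, no intensity trend, a replicate block and leaving out each library. Coding sequences and transcripts came from GENCODE M21, aligned with Biopython 1.88 (match 2, mismatch -1, gap opening -5, gap extension -1), and promoters from RefSeq. Protein sequences were not used here.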

Additional observations from a re-analysis of the deposited data

Results flagged for a closer look

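The genotype effect differed between pools for 1 gene of the lists named here. The polysome-to-RNP ratio of *Hsp90aa1* was higher in KO by 0.78 ± 0.13 on the log2 scale (limma interaction of genotype and pool, adjusted p = 0.0297), with 223 ± 13.1 FPKM in WT RNP, 246 ± 8.78 FPKM in KO RNP, 377 ± 33.9 FPKM in WT polysomes and 710 ± 32.4 FPKM in KO polysomes (SD, n = 3). The call was lost without an intensity trend, with the replicate block in both its forms, and in 7 of the 12 fits that left out 1 library (KO polysome replicate 2 or 3, any KO RNP replicate, and WT RNP replicate 2 or 3).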

How the results depend on the processing

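The members called lower kept that direction in all alternatives run. The number of members called between genotypes in polysomes, 1, became 2 with a filter at 5 FPKM or quantile normalization, 0 without an intensity trend, and 1 to 2 with 1 library left out. That in the RNP pool, 4, became 1 without the trend, 5 with quantile normalization, where *Tcl1b4* was called lower (limma, adjusted p = 0.0380), and 4 to 5 with 1 library left out. That between pools in WT, 3, also became 1 without the trend. The causes were not tested. AKT pathway calls went from 1 to 2 (filter at 5 FPKM) or 0 (no trend) in polysomes, from 2 to 1 (no filter) or 0 (no trend) in the RNP pool, and from 1 to 0 (no trend) for the ratio, and with 1 library left out they were 1 to 2, 0 to 3 and 0 to 1. Neighbour calls went from 1 to 2 (filter at 5 FPKM, median rescaling or quantile normalization) or 0 (no trend) in polysomes and from 2 to 1 in the RNP pool (no trend), and with 1 library left out they were 0 to 1 and 1 to 2.

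Libraries that share a replicate number did not deviate together (correlations of -0.0207 to 0.0255 over 10949 genes), and the numbers were not taken as pairs in the main fits. These correlations cannot show whether pools with the same number came from the same gradient. With the replicate block, 1 member was called in polysomes and 5 in the RNP pool, where *Tcl1b2* was higher (limma, adjusted p = 0.0389), 0 for the ratio, 3 in WT pools and 2 in KO pools. The block left 0 AKT pathway calls for the ratio, also when set by gradient, and 1 neighbour call in the RNP pool.

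Signs turned for values that were never called. With 1 library left out, *Tcl1b2* in polysomes ranged from -0.13 (without WT polysome replicate 3) to 0.38, and *Tcl1b5* from -0.40 to 0.43 (without WT polysome replicate 3). The ratio of *Tcl1b1* was at -0.014 with median rescaling and ranged from -0.24 to 0.28 with 1 library left out, and the KO pool difference of *Tcl1b2* ranged from -0.48 to 0.12. In the simulation of the polysome comparison, 20% of changes of 1 on the log2 scale were recovered. That share is over genes drawn at random above a low level and was not computed for the members. Fewer genes were changed in the simulation than were called in the real comparison. Fragments that *Tcl1b* genes may share could limit their separate values, which was not tested. At 150 bases only *Tcl1b2* and *Tcl1b3* shared windows with another member.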
